A study of Homo sapiens with 6 samples.

Results

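The replication-dependent histone genes encode the bulk H1, H2A, H2B, H3 and H4 proteins that package newly copied DNA. They were taken as the current symbols H1-1 to H1-5 and every symbol made of H2AC, H2BC, H3C or H4C plus a number, without pseudogenes. GENCODE 44 holds 68 such symbols, and 64 of them had a row in the count table. CPM is a gene's count relative to the size of its library, and for the levels given below that size was scaled. CPM without that scaling was above 1 in at least 3 libraries for 52 of the 64, out of 16974 genes that passed the same filter. These 52 comprise 4 H1, 14 H2A, 15 H2B, 8 H3 and 11 H4 genes. They were measured in 6 libraries of DLD-1, a human colorectal adenocarcinoma line. Both alleles of TPR, which encodes a protein of the basket at the nuclear side of the pore, carried an auxin-inducible degron (AID) and NeonGreen, and TIR1, the ligase subunit that lets auxin trigger degradation of the tagged protein, was expressed from the RCC1 locus. All cultures received 200 nM Leptomycin B (LMB), an inhibitor of the export receptor CRM1, for 3 h. The 3 LMB libraries received nothing further, and the 3 LMB+auxin libraries also received 1 mM auxin for the last 2 h. The library names of both groups carry a time of 2 h and do not say to which treatment it applies. No library without LMB was analysed here, so this comparison does not show the effect of LMB. None of auxin without the degron was analysed either, so an effect of auxin itself cannot be told apart from that of TPR loss. The question was whether histone mRNA levels depend on TPR in cells whose CRM1 is inhibited.

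Replication-dependent histone genes lie in clusters, have as a rule no introns, and are transcribed in S phase under NPAT. Their mRNAs end in a stem-loop in place of a poly(A) tail. The stem-loop is bound by SLBP, the U7 small nuclear ribonucleoprotein guides cleavage just after it, and export uses the NXF1 receptor that carries other mRNAs. Libraries were made after ribosomal RNA depletion and not by poly(A) selection, so that mRNAs without a poly(A) tail could be sequenced.

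The stem-loop is the feature that sets these mRNAs apart, and it was searched in the GRCh38 genome as an exact stem of 6 base pairs opening with GG and a loop of 4 bases opening with TT, within 150 bases after the stop codon. It was found in 63 of the 68 genes (92.6%) and in 69 of 19919 protein-coding genes (0.35%). The 6 genes outside the symbols of the rule were CDC40, DLEU7, H1-6, H2AX, H3-4 and H3-7. Of the 52 measured genes, 48 have an exact match, and H3C6, H2AC11, H2AC15 and H4C13 have none in this window. The 63 matches are 5 different sequences. One was shared by 40 genes of the H1, H2A, H2B and H3 classes, and the 10 genes of another and the 4 of a further one were all H4 genes. An example of each is printed 5′ to 3′ as DNA on the gene's strand, with the stem-loop in capitals and 5 flanking bases on each side.
H1-2, of the form shared by 40 genes, at chr6:26055739-26055764 on the minus strand: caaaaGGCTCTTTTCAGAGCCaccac
H4C3, of the form shared by 10 genes, at chr6:26104312-26104337 on the plus strand: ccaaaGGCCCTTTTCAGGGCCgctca
H2BC4, of the form shared by 8 genes, at chr6:26123467-26123492 on the minus strand: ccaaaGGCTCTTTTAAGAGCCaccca
H4C12, of the form shared by 4 genes, at chr6:27831173-27831198 on the minus strand: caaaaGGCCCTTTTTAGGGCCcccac
H2AC20, the single gene of its form, at chr1:149887386-149887411 on the plus strand: ccaaaGGCTCTTTTTAGAGCCaccca

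Levels differed widely between genes. Per kilobase of transcript, averaged over the 6 libraries, the highest level was that of H4C3 at 849 CPM per kb and the lowest that of H2BC8 at 20.1, a ratio of 42.2. The median gene stood at 288 CPM per kb. The leading gene of each other class was H3C12 at 743, H2BC4 at 698, H2AC11 at 633 and H1-2, a linker histone, at 593 CPM per kb. H3C12 overlaps H2AC17, and H2BC4 overlaps HFE, so their values may hold reads of the other gene. Both are among 13 of the 52 genes that also have a gene model of several exons. The exons of H3C12 span 858 bases and those of H2BC4 2881, against canonical transcripts of 512 and 460. Reads outside the canonical transcript may therefore raise their levels per kb. The 10 genes of highest mean CPM held 38.9% of the summed CPM of the 52. The spread between genes was far larger than that between libraries, as the plot of levels by class shows.

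**Figure D1:**
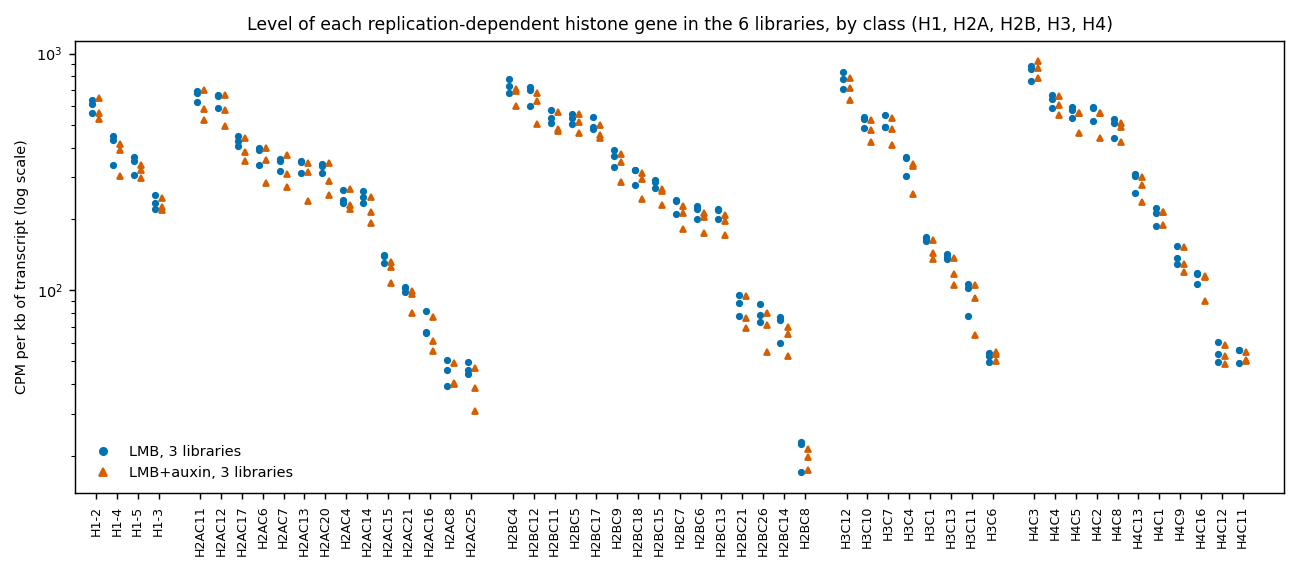
Level of each of the 52 genes in CPM per kb of transcript on a log axis, grouped by class and ordered by mean level within a class. Circles are the 3 LMB libraries and triangles the 3 LMB+auxin libraries. H4C3 is the highest at a mean of 849 and H2BC8 the lowest at 20.1, and the libraries of the 2 groups overlap in all genes but H2BC15.

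LMB+auxin libraries had slightly lower histone mRNA levels than LMB libraries, but no histone gene passed the test. The median log2 fold change of the 52 genes was −0.12, or 8.15% lower, and 50 of 52 were below 0, against a median of −0.003 over all tested genes, of which 50.8% were below 0. With edgeR's quasi-likelihood test, 0 of 52 were called (adjusted p under 0.05 with a change of 1.3-fold or more), in a comparison that called 0.00589% of all genes (1 of 16974). Adjusted p values from edgeR for the 52 ran from 0.954 to 0.991. At an unadjusted p under 0.05 there were 0 of 52 by edgeR, 0 by DESeq2 and 1 by limma-voom, where edgeR gave 4.37% of all genes. Without LMB+auxin replicate 1, the lowest library, the median over the histone genes was −0.03 and 40 of 52 were below 0. In 1 gene, H2BC15, all LMB+auxin libraries lay below all LMB libraries, against 6.63% of all genes, and the groups overlapped in the other 51.

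Summed over the 52 genes, the level was 7896, 8710 and 9048 CPM in LMB replicates 1, 2 and 3 and 7004, 8071 and 8725 CPM in LMB+auxin replicates 1, 2 and 3. The groups overlap, since LMB+auxin replicate 3 stands above LMB replicate 2. The mean sum was 8551 ± 592 CPM for LMB, and for LMB+auxin it was 7933 ± 869 CPM (SD, n = 3 libraries). The difference of 7.23% is smaller than the range within either group. These genes took 0.809% to 0.907% of all counts in LMB and 0.715% to 0.866% in LMB+auxin. Within replicate numbers the sum was lower in LMB+auxin by 11.3%, 7.34% and 3.57% in numbers 1, 2 and 3. Fewer cells in S phase and less histone mRNA per cell cannot be told apart in such bulk samples.

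**Figure D2:**
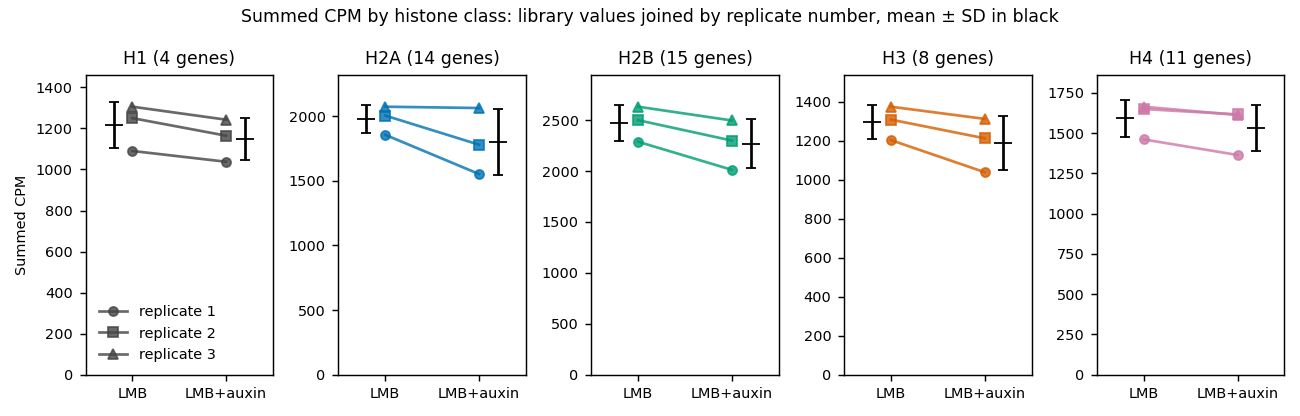
Summed CPM of the genes of each class in every library, with lines joining libraries of the same replicate number and the mean ± SD (n = 3) in black beside them. Each axis starts at 0. The lines slope down in each class, while the LMB and LMB+auxin ranges overlap.

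Libraries sharing a replicate number deviated together, least clearly for number 3, so the comparison was also fitted with the replicate number as a block. The direction was unchanged, with a median log2 fold change of −0.13 and 50 of 52 genes below 0, and 0 of 52 genes were called where 1.19% of all genes were. Small differences became more precise, and the median SE of a member's log2 fold change was 0.09 without the block and 0.05 with it. By adjusted p alone, without the fold threshold, 15 of 52 (28.8%) were lower with the block and 0 higher, against 3.27% of all genes that were lower. These were H1-4, H2AC11, H2AC12, H2AC13, H2AC14, H2AC15, H2AC20, H2AC25, H2BC7, H2BC12, H2BC15, H2BC26, H3C1, H3C4 and H3C13. The count varied with the pairs and the tool, and so did that over all genes. For the histone genes it was 3 without pair 1, 1 without pair 2 and 1 without pair 3. With the block it was 13 by limma-voom and 0 by DESeq2. Over all 16974 genes, in either direction, it was 745 with the block by edgeR. It was 462, 345 and 168 without pair 1, 2 and 3, 658 by limma-voom and 93 by DESeq2. At an unadjusted p under 0.05, 36 of 52 (69.2%) were lower with the block by edgeR, against 11.8% of all genes. By DESeq2 with the block, 26 of 52 passed in either direction, against 1345 of all 16974 genes. All 3 pairs were lower in 38 of 52 genes, against 20.5% of all genes.

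The classes lay close together. The median log2 fold change was −0.15 for H2A, −0.13 for H2B, −0.13 for H3, −0.07 for H1 and −0.06 for H4, and differences between classes were not tested. Without LMB+auxin replicate 1 these medians were −0.05, −0.06, −0.03, −0.02 and 0.005. H2A and H2B, which form dimers in the nucleosome, were below 0 in 14 of 14 and 15 of 15 genes. H3 was below 0 in 7 of 8 genes, H1 in 4 of 4 and H4 in 10 of 11. The summed level was lower in LMB+auxin by 9.08% for H2A, 8.24% for H2B, 8.31% for H3, 5.52% for H1 and 3.79% for H4. For H2A the sum was 1855, 2004 and 2072 CPM in LMB replicates 1, 2 and 3 and 1552, 1779 and 2062 CPM in LMB+auxin. Replicate number 3 differed by 0.50%, against 16.3% in number 1. For H4 the sum was 1461, 1649 and 1664 CPM in LMB, and 1364, 1617 and 1612 CPM with auxin added. With the block, 7 H2A, 4 H2B, 3 H3 and 1 H1 genes and 0 H4 genes were at an edgeR adjusted p under 0.05. The stem-loop forms found only in H4 genes had medians of −0.06 for the 8 measured genes of the H4C3 form and −0.05 for the 2 of the H4C12 form. The form shared by H1-2 had a median of −0.13 over 31 measured genes, and the 4 genes with no exact stem-loop had −0.12.

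**Figure D3:**
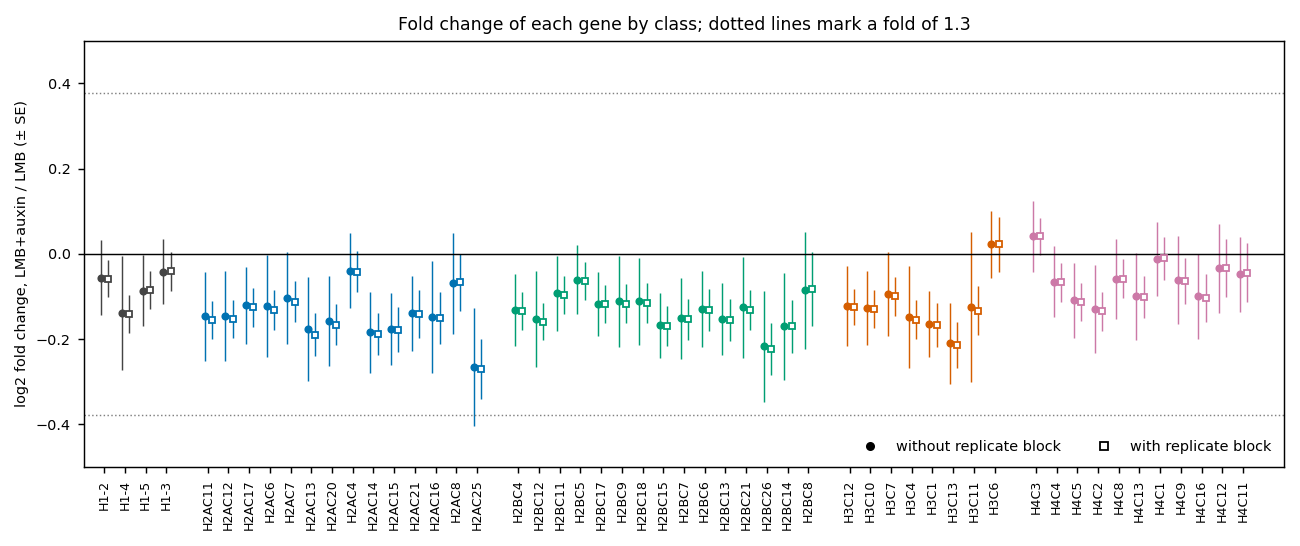
Log2 fold change of LMB+auxin over LMB with its SE for each gene, by class, without the block (filled circles) and with it (open squares). Dotted lines mark a fold of 1.3, and all 52 genes lie between them, from −0.27 for H2AC25 to 0.04 for H4C3 without the block.

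The most abundant genes were measured with small counting error but followed their libraries. H1-2 read 409, 449 and 466 CPM in LMB replicates 1, 2 and 3 and 387, 412 and 475 CPM in LMB+auxin. The highest single value was an LMB+auxin library, and the log2 fold change was −0.06 ± 0.09 (SE). H3C12 read 363, 398 and 429 CPM in LMB, and 324, 365 and 404 CPM with auxin added. Each LMB+auxin library was lower than the LMB library of its number, and the log2 fold change was −0.12 ± 0.09. H2BC4, at 314, 335 and 360 CPM against 275, 318 and 326.5 CPM, was likewise lower in each pair, with −0.13 ± 0.08. H2AC11, which has no exact stem-loop in the window, read 309, 334 and 341 CPM in LMB, and 257, 287 and 345 CPM with auxin added. It was lower in 2 of 3 pairs, and its log2 fold change was −0.15 ± 0.10.

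The 4 lowest fold changes belonged to H2AC25, H2BC26, H3C13 and H2AC14. H2AC25 read 23.5, 22.6 and 25.3 CPM in LMB replicates 1, 2 and 3 and 15.7, 19.7 and 23.9 CPM in LMB+auxin. Its log2 fold change was −0.27 ± 0.14, and the edgeR adjusted p was 0.954, or 0.0114 in the fit with the block. LMB+auxin replicate 1 was the lowest, and replicate 3 lay within the LMB range. H2BC26 read 33.6, 35.9 and 39.8 CPM in LMB, and 24.98, 32.6 and 36.5 CPM with auxin added, a log2 fold change of −0.22 ± 0.13 and an edgeR adjusted p with the block of 0.0169. H3C13, an H3 gene, read 64.9, 63.7 and 66.7 CPM in LMB, and 49.3, 55.1 and 64.3 CPM with auxin added. Its log2 fold change of −0.21 ± 0.09 had the lowest edgeR adjusted p of the 52 with the block, 0.00876. H2AC14 read 112, 118 and 125 CPM in LMB, and 91.8, 102 and 118 CPM with auxin added, with −0.18 ± 0.10. In all 4 genes LMB+auxin replicate 1 was the lowest library, LMB+auxin replicate 2 the next and LMB replicate 3 the highest. H2BC15, the gene whose groups did not overlap, read 147, 155 and 159 CPM in LMB, and 124, 142 and 145 CPM with auxin added, with −0.17 ± 0.08 and an edgeR adjusted p of 0.954.

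At the other end, H4C3 and H3C6 were the 2 genes with a fold change above 0. H4C3, the highest gene per length, read 309, 348 and 359 CPM in LMB, and 320, 351 and 376 CPM with auxin added. It was higher in each pair, by a log2 fold change of 0.04 ± 0.08, and no other gene was higher in all 3 pairs. H3C6 read 23.9, 26.1 and 25.4 CPM in LMB, and 25.9, 24.2 and 26.4 CPM with auxin added, with 0.02 ± 0.08. H4C1 at −0.01 and H4C12 at −0.03 completed the 4 highest. The sign of these 4 genes changed when single libraries were left out.

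The genes lie at 4 loci known as HIST1 to HIST4. HIST1 on chromosome 6 (25723397 to 27893891) holds 54 of the symbols and 44 measured genes, with a median log2 fold change of −0.12. HIST2 on chromosome 1 (149782689 to 149887965) holds 5 measured genes, H2BC18, H3C13, H2BC21, H2AC20 and H2AC21, all below 0 with a median of −0.14. H2AC20 read 155, 165 and 168 CPM in LMB, and 125, 143 and 170 CPM with auxin added. It had a log2 fold change of −0.16, and those of H2BC18, H2BC21 and H2AC21 were −0.11, −0.13 and −0.14. HIST3, also on chromosome 1 (228434777 to 228463104), holds H2AC25 and H2BC26, and its median was −0.24. HIST4 on chromosome 12 holds H4C16, which read 43.8, 48.6 and 48.3 CPM in LMB, and 37.1, 46.8 and 47.4 CPM with auxin added, with −0.10 ± 0.10. Within HIST1, gaps of over 0.3 Mb separate 23, 5 and 16 measured genes, whose medians were −0.09, −0.15 and −0.13. Differences between loci were not tested. Leaving out 1 library moved the median of HIST1 between −0.18 and −0.03, of HIST2 between −0.25 and −0.05, of HIST3 between −0.38 and −0.10 and of HIST4 between −0.16 and 0.005, with the lowest value without LMB+auxin replicate 3 and the highest without LMB+auxin replicate 1. Replicate number 1 showed the largest difference at HIST1, HIST2 and HIST3 (medians of −0.20, −0.28 and −0.50) and number 3 the smallest (−0.06, −0.05 and −0.10).

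**Figure D4:**
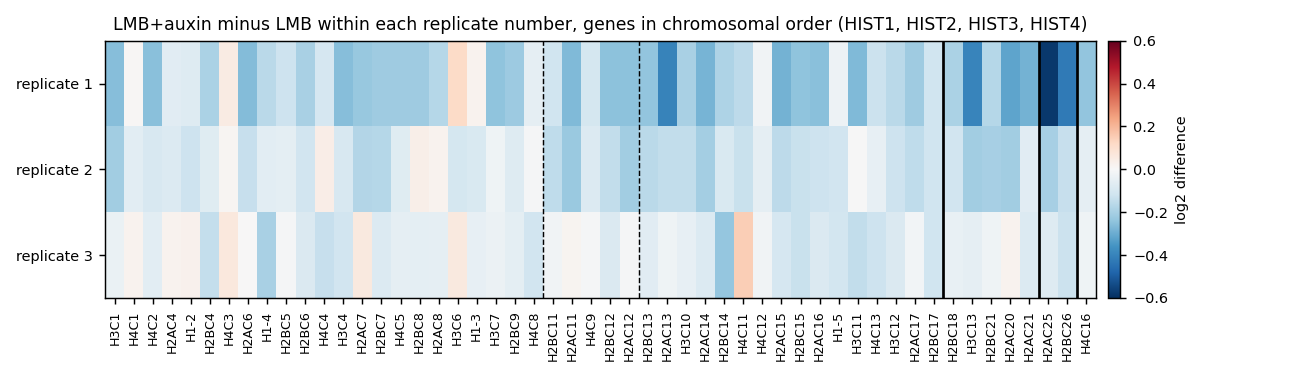
Log2 difference of LMB+auxin minus LMB within each replicate number for the 52 genes, in chromosomal order. Solid lines separate HIST1, HIST2, HIST3 and HIST4, and dashed lines the 3 parts of HIST1. Blue is lower in LMB+auxin. Replicate 1 was lower in 48 genes, replicate 2 in 48 and replicate 3 in 42, with the paler colours in replicate 3.

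Many H2A and H2B genes are arranged head to head on a short shared promoter region. Among measured genes, 11 such pairs with starts at most 300 bases apart gave 22 genes. Both genes of all 11 pairs had fold changes below 0, which follows from all 14 H2A and all 15 H2B genes being below 0. The quartiles of the log2 fold change over all 52 genes were −0.15 and −0.08, and pairs were not tested against unpaired genes. The 2 genes of a pair differed by 0.003 to 0.05 in log2 fold change, with a median of 0.02, while their levels per length differed by up to 3.505 times, in H2AC14 and H2BC14, H2BC21 and H2AC20 left aside. H2BC21 has a canonical transcript of 2224 bases, although its stem-loop lies 56 bases after the stop codon, and its lower level per length rests on that length. In CPM, H2BC21 stood above H2AC20, at 194 and 163 in LMB. The pair of the lowest fold changes, H2AC25 and H2BC26, is separated by 229 bases. This stretch, at chr1:228457874-228458102 in GRCh38, is shown because both genes start from it. It is printed on the plus strand, with CCAAT or its reverse complement ATTGG in capitals.
H2AC25 and H2BC26 shared region: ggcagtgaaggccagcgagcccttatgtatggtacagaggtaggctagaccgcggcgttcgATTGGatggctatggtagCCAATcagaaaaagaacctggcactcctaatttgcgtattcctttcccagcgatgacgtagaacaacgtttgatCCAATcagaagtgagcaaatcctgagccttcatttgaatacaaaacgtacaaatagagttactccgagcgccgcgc
It holds 3 CCAAT motifs and 0 TATAAA motifs on either strand. RefSeq promoters of GRCh38.p14, each 300 bases long, were matched for 63 of the 68 symbols, as 67 promoters. On both strands CCAAT was in 57 of 67 (85.1%), against 34.6% of 35116 promoters, and TATAAA was in 45 of 67 (67.2%), against 11.5%.

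The canonical transcript of all 52 genes has 1 exon, a property shared by 207 other tested protein-coding genes (1.64% of them). After the histone values were seen, these 207 genes were set beside them. Their median log2 fold change was −0.15, and 177 of 207 (85.5%) were below 0, against 46.8% of the protein-coding genes with several exons, whose median was 0.01. With the block, 37 of the 207 (17.9%) were lower at an edgeR adjusted p under 0.05. Their pair medians were −0.17, −0.15 and −0.10, beside −0.21, −0.12 and −0.05 for the 52 histone genes. Values below 0 of a like size were thus found in both sets, and the part of exon number in them was not tested.

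Replication-independent histones, which replace the bulk histones outside S phase, had a median log2 fold change of −0.03 over 10 tested genes, of which 6 were below 0. H3-3A, H3-3B and H2AZ1 were at 0.04, −0.02 and −0.04. H1-10, a linker histone, was at −0.24 and was lower with the block at an edgeR adjusted p of 0.00331. H2AX, which carries the exact stem-loop, read 103, 106 and 113 CPM in LMB, and 87.6, 106 and 107 CPM with auxin added, a log2 fold change of −0.10 with an edgeR adjusted p of 0.954.

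The genes that make, bind and degrade histone mRNA had a median on the other side of 0. So had the protein-coding genes with several exons, at 0.01. Of 25 tested, 9 were below 0, the median was 0.03, and 0 were called with or without the block. SLBP, the stem-loop binding protein, read 149, 136 and 158 CPM in LMB, and 165, 141 and 167 CPM with auxin added, a log2 fold change of 0.09. NPAT was at 0.03, CASP8AP2 at 0.13, ZNF473, a U7 processing factor, at 0.09, LSM10 at 0.05, and ERI1, the exonuclease that trims histone mRNA ends, at 0.09. CSTF2T, whose canonical transcript has 1 exon, was at −0.11 and was lower in each of the 3 pairs. LSM11, a U7-specific protein, read 9.85, 8.24 and 9.40 CPM in LMB, and 7.41, 7.66 and 7.03 CPM with auxin added, with a log2 fold change of −0.32. It was the one gene of the 25 at an edgeR adjusted p under 0.05 with the block, at 0.0305, and its groups did not overlap. Of 13 histone chaperone and transport genes, 5 were below 0, with a median of 0.03, and 0 were at an adjusted p under 0.05 with or without the block.

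Genes of S phase and of mitosis are given because histone transcription follows the cell cycle. The 20 S phase and replication genes had a median of 0.06, 6 were below 0, and 0 were at an edgeR adjusted p under 0.05 in either fit. PCNA was at 0.07, CCNE2 at 0.03 and E2F1 at −0.08. The 14 G2 and mitosis genes had a median of 0.08, 3 were below 0 and 0 were at an edgeR adjusted p under 0.05, with CCNB1 at 0.07. The canonical transcripts of both lists have several exons, and the median over protein-coding genes with several exons was 0.01. The summed CPM of the S phase genes was 4453 to 5087 in LMB and 4617 to 5236 in LMB+auxin, and was higher within each replicate number. The share of cells in S phase was not measured. Of 5 RNAs of RNA polymerase III, which also lack poly(A) tails, all 5 were below 0, with a median of −0.10, and RN7SL1 and RN7SL2 were lower at edgeR adjusted p values of 0.0204 and 0.00625 with the block. Their summed CPM differed between replicate numbers more than between groups, at 29662, 41397 and 32040 in LMB and 23850, 39651 and 30515 in LMB+auxin. The part of the capture of RNA without poly(A) tails in the histone values was not tested.

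Several histone values are uncertain because of sequence sharing or overlap. In 7 of the 52 genes, 50% or more of all 50-base windows also occur in another gene, namely H2AC13 with H2AC14, H4C11 with H4C12, H2BC12, H2BC18 and H3C13. Their median was −0.15, and it was −0.12 over the other 45. H4C11 and H4C12, at −0.05 and −0.03, share over 92% of windows, so that shared reads could be assigned to either or left out. Overlap with another gene model was found for 9 genes, and no source used here gives the strand setting of the counting. Without them the median was −0.12. Genes that did not pass the filter were H1-1, H2AC1, H2BC1, H2BC3, H2BC10, H3C8, H3C14, H3C15, H4C6, H4C7, H4C14 and H4C15, whose highest count in any library was 15. H3C14, H3C15, H4C14 and H4C15 share over 99% of their windows with their duplicate. The treatment of shared reads in the counting is not given here, so the low counts of these genes may not mean low expression. H2AC18, H2AC19, H3C2 and H3C3 were not analysed here.

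Total counts ran from 28261903 to 35992425 per library. TPR mRNA read 163, 157 and 180 CPM in LMB, and 192, 184 and 186 CPM with auxin added, but auxin removes the protein and not the mRNA, so this is no check of depletion. All 7 colon epithelial markers were expressed (KRT8 at 3246 to 3640 CPM), their median log2 fold change was 0.03 and 0 were at an edgeR adjusted p under 0.05. Of 5 markers of other cell types, none passed the filter, and the highest count was 27, for COL1A1.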

How the data were processed

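Total RNA of 6 DLD-1 cultures was sequenced. The authors aligned reads and deposited raw counts per Ensembl gene. The labels name STAR 2.6.1c, featureCounts 1.5.2, CASAVA 1.8.2 and GRCh38. For multi-mapping and strand, the settings are not given in the sources used here. Groups came from the treatment labels. Of 58051 genes, 56948 (98.1%) had a GENCODE 44 symbol. Genes with CPM above 1 in at least 3 libraries were tested, with full library totals, TMM scaling and the robust quasi-likelihood test of edgeR 4.0.16 in R 4.3.3, and Benjamini-Hochberg adjustment over all 16974 genes. A call needed an adjusted p under 0.05 with a change of 1.3-fold or more. DESeq2 1.42.0 and limma-voom (limma 3.58.1), other scalings, no filter and leaving out libraries were alternatives. Printed CPM used TMM factors, while the CPM of the filter used library totals alone. Pair differences used log2 CPM with TMM factors and a prior count of 2. Only the edgeR fit without the block was tested on simulated counts. These had less spread between libraries than that fit found in the data, and no replicate effect.

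Deviations from group means correlated at 0.531, 0.691 and 0.273 between libraries sharing replicate number 1, 2 or 3. Between libraries of unlike numbers the correlations ran from −0.573 to 0.146, so the pairing is least clear for number 3. These numbers were taken as pairs and a block was fitted. The study describes 3 independent biological replicates. No 2 replicates agreed within counting noise (chi-square per degree of freedom of 5.35 or more).

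The histone genes and all gene lists (histone mRNA processing, replication-independent histones, S phase, G2 and mitosis, chaperones, polymerase III RNAs, colon and other cell markers) were chosen with earlier results of these data known. Named genes were the highest of each class per length, the 4 highest and 4 lowest fold changes at a mean count of at least 100, genes outside chromosome 6, near-identical copies, any called gene and a fixed set of regulators. H2BC15 and the further genes named among the 15 and in the lists were added after their values were seen. Members less than 1 Mb apart shared a locus. Levels between genes are CPM per kb of the canonical transcript.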

Additional observations from a re-analysis of the deposited data

How the results depend on the processing

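No histone gene was called under any setting, and the median log2 fold change over the histone genes stayed below 0 throughout. Without the replicate block, leaving out single libraries moved it between −0.18 and −0.03. The highest value came without LMB+auxin replicate 1, when 40 of 52 genes were below 0. The summed CPM moved between −0.18 and −0.03 (log2), and over the class medians the range was −0.24 to 0.005, with H4 alone above 0. The number of genes called over all genes was 1, and it was 202 with the replicate block, 39 with no filter, 11 by DESeq2, 0 with library size alone and 0 to 5 without single libraries. With the block, it was 30 by DESeq2, 185 by limma-voom, 253 with library size alone, 197 with DESeq2 size factors, and 140, 160 and 137 without pair 1, 2 and 3, settings chosen after seeing the data. The 15 histone genes at an adjusted p under 0.05 with the block became 0 by DESeq2 and 3, 1 and 1 without pair 1, 2 and 3. Over all genes, the 745 at this threshold became 93 by DESeq2 and 462, 345 and 168 without pair 1, 2 and 3. The causes were not tested.

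Of 20 named histone genes, 14 kept their direction in the settings run for single genes, which did not include the block combined with another choice. The other 6 changed sign when a single library was left out, with ranges of −0.139 to 0.0065 for H1-2, −0.0206 to 0.0994 for H4C3, −0.103 to 0.0536 for H4C12, −0.0804 to 0.0508 for H4C1, −0.011 to 0.05995 for H3C6 and −0.155 to 0.0052 for H4C16. With 3 libraries a group, differences of the size seen here, near 8%, are below the fold change needed for a call, and their median SE was 0.09 without the block and 0.05 with it. Mean counts of the 52 genes were 307 to 13567.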
